A study of Mus musculus with 12 samples.

Results

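Netrins are a small family of laminin-related proteins, and 6 mouse genes were examined as their ligand genes: Ntn1, Ntn3, Ntn4 and Ntn5, which encode secreted netrins, and Ntng1 and Ntng2, which encode the membrane-anchored netrin-Gs. They were found by symbol among 52661 genes measured by RNA-seq in CGR8 mouse embryonic stem cells. Of the 6, 5 had a row of counts and Ntn3 was not analysed here. Counts of Ntn1, Ntn4 and Ntng2 were high enough to be tested among 21053 genes, while Ntn5 and Ntng1 had too few counts for a test and are given as levels. Ntn1 is the gene whose product the experiment adds, so its level in each library also checks the labels of netrin-1 and empty vectors. It does not check which form of netrin-1 the vector encoded.

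All cells grew in serum with LIF and carried the vector ppy-cagg-ires-puro by stable transfection. The vector encoded wild-type netrin-1 (netrin-1 WT), a netrin-1 with a point mutation of its interaction with the receptor Unc5b (unc5B MUT) or with neogenin (neo1 MUT), or it was empty (control), with 3 libraries of total RNA in each group. The sources used here do not give the bases changed in the mutants, the species of the netrin-1 sequence or whether a line came from 1 clone. The comparisons ask how cells with each form of netrin-1 differ from cells with the empty vector, and how the forms differ from each other.

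Netrin-1 has an N-terminal laminin-like domain followed by EGF-like repeats. Its receptors include Dcc, the Dcc relative neogenin (the product of Neo1) and members of the Unc5 family. Netrin-1 was first studied as a guidance cue of the developing spinal cord, where floor plate cells make it, and Dcc and Unc5 receptors are also known as dependence receptors, which can signal cell death when they lack ligand. Netrin-4 is related more closely to laminin beta chains and binds laminins, and the netrin-Gs bind the Lrrc4 family of synaptic adhesion proteins instead of Dcc or Unc5.

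The mouse genes of the family differ enough in sequence for reads of mouse Ntn1 to be told from those of its relatives. The netrin-1 sequence of the vector, whose species is not given, was not examined. Of 6245 distinct stretches of 31 bases in the Ntn1 transcripts of the GENCODE M21 annotation (GRCm38), 0 occurred in another netrin gene and 1 (0.016%) occurred in any other gene. Over the 1815 coding bases of Ntn1, the longest run shared with another family member was 20 bases, with Ntn5. It was 17 bases with Ntn3, 14 with Ntn4, 13 with Ntng1 and 11 with Ntng2. The runs shared with the secreted netrins are shown because they are where a short fragment of one gene could be taken for another. Sequences are in the sense of the mRNA, the shared run is in capitals, and each has up to 15 flanking bases on either side.
Ntn1, coding bases 1318 to 1337: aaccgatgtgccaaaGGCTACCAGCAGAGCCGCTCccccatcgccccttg
Ntn5, coding bases 790 to 809: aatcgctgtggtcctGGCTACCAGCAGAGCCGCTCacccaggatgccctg
Ntn1, coding bases 1054 to 1070: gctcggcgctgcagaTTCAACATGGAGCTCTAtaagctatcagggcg
Ntn3, coding bases 964 to 980: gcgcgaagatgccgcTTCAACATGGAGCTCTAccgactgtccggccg
Ntn1, coding bases 859 to 872: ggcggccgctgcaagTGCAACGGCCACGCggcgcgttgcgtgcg
Ntn4, coding bases 790 to 803: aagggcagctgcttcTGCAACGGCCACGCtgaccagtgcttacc
Coding bases are counted from 1 at the start codon. In each pair the flanks differ on both sides of the run.

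Ntn1 (ENSMUSG00000020902) lies on the minus strand of chromosome 11 at 68209364 to 68400823 (GRCm38) and has 6277 exonic bases. It was high in the 9 libraries of cells with a netrin-1 vector and low in the 3 control libraries. Levels are given as CPM, the counts scaled to library size after TMM normalization. The netrin-1 WT libraries 1, 2 and 3 had 288, 223 and 76.9 CPM. The unc5B MUT libraries 1, 2 and 3 had 322, 204 and 34.9 CPM. The neo1 MUT libraries 1, 2 and 3 had 219, 201 and 56.5 CPM, against 15.4, 9.08 and 0.775 CPM in control libraries 1, 2 and 3. No netrin-1 library overlapped the control libraries, and in every group the library numbered 3 was the lowest. Group means were 196 ± 108 CPM in netrin-1 WT, 187 ± 144 in unc5B MUT, 159 ± 89.2 in neo1 MUT and 8.43 ± 7.35 in control (SD, n = 3 each). Behind these levels stood 642 to 20002 estimated counts per netrin-1 library and 13.9 to 697 per control library. Such separation upwards of all 3 libraries of a group from control was seen for 4.89% of tested genes when the group was netrin-1 WT, 2.33% for unc5B MUT, 5.38% for neo1 MUT and 0.323% over all 9 netrin-1 libraries. Counts do not separate RNA of the vector from RNA of the cells' own Ntn1 gene, and in bulk RNA a lower share of cells with Ntn1 cannot be told apart from less Ntn1 RNA per cell.

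**Figure D1:**
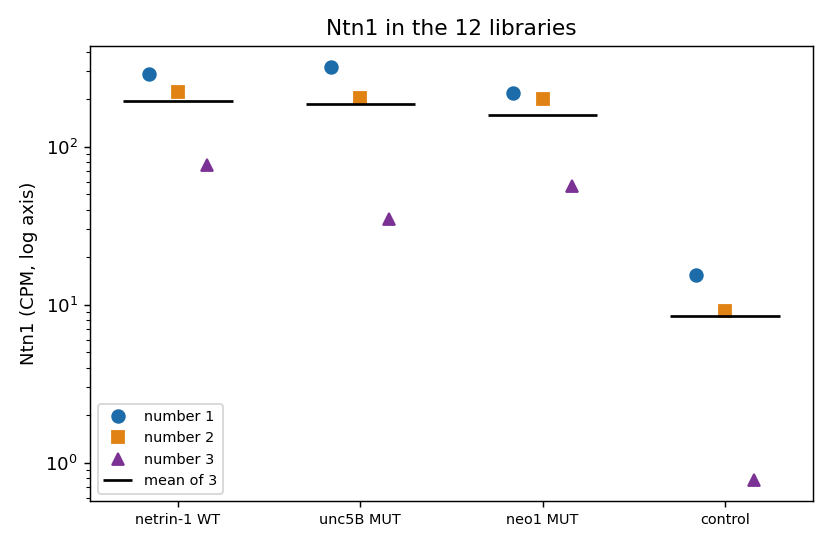
Ntn1 in CPM on a log axis in the 12 libraries, by group, with the symbol giving the replicate number and the line the mean of 3. The 9 netrin-1 libraries lie between 34.9 and 322 CPM, all above the control libraries, which reach 15.4 CPM, and number 3 is lowest in each group.

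Per kilobase of exons, a scale for comparing genes, Ntn1 was one of the more abundant RNAs in numbers 1 and 2 of the netrin-1 groups. It was less so in number 3. Ntn1 counts were divided by all 6277 exonic bases of the mouse gene, whose coding part is 1815 bases. How long the RNA made from the vector is remains unknown here. If that RNA is shorter, per-kilobase levels of Ntn1 are too low in the netrin-1 libraries. Their comparison with control is uncertain to that extent. The level of Ntn1 was above that of 95.4%, 93.8% and 77.5% of 21021 genes in netrin-1 WT libraries 1, 2 and 3. In unc5B MUT it was above 95.1%, 92.8% and 64.5%, and in neo1 MUT above 93.1%, 93.2% and 72.6% of them. In control libraries 1, 2 and 3 it was above 55.6%, 47.4% and 15.8%. Ntn1 was thus detected in all 3 control libraries, at a level near the middle of the genes tested in numbers 1 and 2 and low in number 3.

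Without the replicate number in the model (the unpaired fit), the edgeR quasi-likelihood test gave Ntn1 a log2 fold change of 4.53 ± 1.14 (SE) for netrin-1 WT against control, which did not pass the threshold of 0.05 (Benjamini-Hochberg adjusted p = 0.271). It gave 4.46 ± 1.14 for unc5B MUT (adjusted p = 0.99998) and 4.23 ± 1.13 for neo1 MUT (adjusted p = 0.255), and 4.41 ± 1.07 for the 3 netrin-1 groups together (adjusted p = 0.351). This fit called 0.0997% of genes for netrin-1 WT, 0.128% for neo1 MUT and 0.109% for the 3 groups together. For unc5B MUT it called 0 genes, with 238 at an unadjusted p under 0.05, where DESeq2 called 11. Without any difference, a fraction of about 0.05 of the 21053 tested genes would be at such a p, which is more than 238. In the unpaired fit the difference between number 3 and the other numbers counts as spread between replicates.

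When the replicate number, which the groups share, was added as a block, Ntn1 rose in all 3 groups. In this paired fit the log2 fold change was 4.85 ± 0.36 for netrin-1 WT (28.9-fold, 95% interval 16.7 to 50.1, adjusted p = 0.000293, edgeR). It was 4.48 ± 0.35 for unc5B MUT (22.4-fold, interval 13.0 to 38.4, adjusted p = 0.0016) and 4.52 ± 0.36 for neo1 MUT (22.9-fold, interval 13.3 to 39.4, adjusted p = 0.000169). For the 3 groups together it was 4.62 ± 0.34 (adjusted p = 0.000183). The paired fit called 3.5% of genes for netrin-1 WT, 0.0285% for unc5B MUT, 5.26% for neo1 MUT and 1.5% for the 3 groups together. Ntn1 was the only one of the 3 tested members among them. Ntn1 had the smallest p of 21053 genes for unc5B MUT, the third smallest for netrin-1 WT and the ninth smallest for neo1 MUT. The authors' deposited table gives Ntn1 log2 fold changes of 4.71 for netrin-1 WT (adjusted p = 0.000125), 4.53 for unc5B MUT (adjusted p = 0.0011) and 4.41 for neo1 MUT (adjusted p = 0.000243). That table calls 4.42%, 0.0491% and 5.52% of its 20347 genes in these comparisons.

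Numbers 1 and 2 alone gave a similar fold with a much smaller spread. With the 4 libraries numbered 3 left out, a choice made after seeing the data, the unpaired log2 fold change was 4.37 ± 0.32 for netrin-1 WT (adjusted p = 0.000794), 4.41 ± 0.32 for unc5B MUT (adjusted p = 0.00574) and 4.09 ± 0.31 for neo1 MUT (adjusted p = 0.000715), by the same edgeR test. That fit called 4.22%, 0.0188% and 2.76% of 21223 genes in these comparisons.

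No difference in Ntn1 between the 3 forms of netrin-1 passed these tests, and the intervals still allow sizeable differences. In the paired edgeR fit, unc5B MUT had 0.775 times the Ntn1 level of netrin-1 WT, with a 95% interval of 0.489 to 1.23 (adjusted p = 0.562). The neo1 MUT level was 0.792 times that of netrin-1 WT, with an interval of 0.501 to 1.25 (adjusted p = 0.671), and 1.02 times that of unc5B MUT, with an interval of 0.646 to 1.62 (adjusted p = 0.973). The paired fit called 1.97%, 1.99% and 4.87% of genes in these comparisons, and the unpaired fit 0%, 0.076% and 0.133%. For unc5B MUT against netrin-1 WT the unpaired count of 0 genes stood beside 1059 at an unadjusted p under 0.05 and 182 called by DESeq2. That 1059 is near the fraction of 0.05 of the 21053 tested genes that would be there without any difference. The unpaired fit counts the number 3 difference as spread, and the paired fit had 3701 genes at such a p. The unpaired count therefore does not show that these groups are alike. Within a replicate number, unc5B MUT minus netrin-1 WT was 0.16, -0.12 and -1.14 on the log2 scale in numbers 1, 2 and 3, and neo1 MUT minus netrin-1 WT was -0.39, -0.15 and -0.45. The neo1 MUT library was thus the lower one in each number, while the unc5B MUT library lay well below the netrin-1 WT library in number 3 and lay close to it in numbers 1 and 2.

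**Figure D2:**
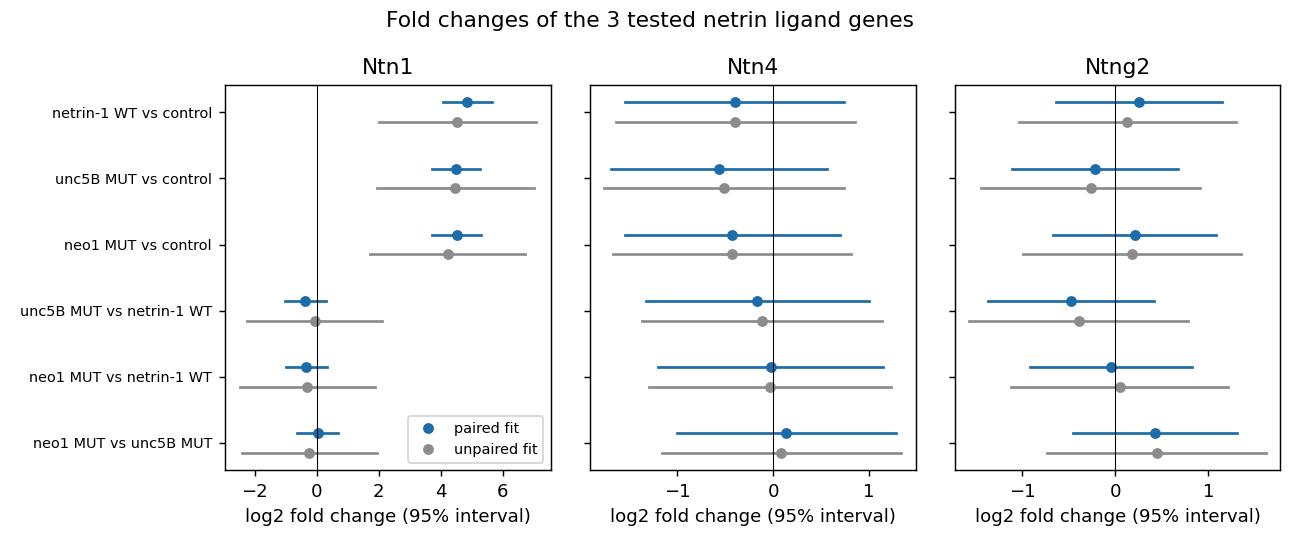
Log2 fold changes with 95% intervals of Ntn1, Ntn4 and Ntng2 (panels, each with its own axis) in 6 comparisons, from the paired and the unpaired fit. For Ntn1 the 3 comparisons with control lie between 4.23 and 4.85 and those between netrin-1 forms near 0, and every interval of Ntn4 and Ntng2 includes 0.

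The libraries numbered 3 stood apart for most genes, and Ntn1 was among those with the deepest drop. They held 22256195 to 24736421 summed counts, against 32370919 to 59735737 in the others, and the first principal component (70.2% of the variance) set them apart. What a number stands for is not in the labels. In the paired fit, Ntn1 fell in number 3 against the mean of numbers 1 and 2 by 2.34 ± 0.26 on the log2 scale (adjusted p = 1.86e-05, edgeR). This contrast called 62.8% of the tested genes, including the 31% called lower, so the call itself is shared with many genes. Number 3 reached 30.1% of the mean of numbers 1 and 2 in netrin-1 WT, 13.3% in unc5B MUT, 26.9% in neo1 MUT and 6.32% in control. Among 11109 genes with a mean of at least 5 CPM, 3.03% had a lower ratio than Ntn1 in netrin-1 WT, 0.36% in unc5B MUT, 1.12% in neo1 MUT and 0.315% in control. The median log2 ratio of these genes lay between 0.06 and 0.11 in the 4 groups.

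The ratio of number 3 to numbers 1 and 2 was lowest in control, so the fold of Ntn1 over control was largest in number 3. Against the control library of the same number, netrin-1 WT had 18.6, 24.5 and 99.2 times the Ntn1 CPM in numbers 1, 2 and 3. The ratio was 20.9, 22.5 and 45.0 for unc5B MUT and 14.2, 22.2 and 72.9 for neo1 MUT. Number 3 rests on a single control library with 13.9 Ntn1 counts. A test of the difference, added after these values were seen, put the number 3 effect at -2.14 in the netrin-1 groups and -3.97 in control, a difference of 1.82 ± 0.71 that did not pass (edgeR, adjusted p = 0.363), where 0.0285% of genes did.

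Ligand and receptor levels changed order between the groups. Neo1 and Unc5b, the genes of the receptors for which the mutants are named, had levels per kilobase that varied little by group. In netrin-1 WT libraries 1, 2 and 3 the level of Ntn1 was 4.35, 3.76 and 2.62 times that of Neo1. In unc5B MUT it was 5.24, 3.70 and 1.61 times, and in neo1 MUT 4.29, 3.64 and 2.34 times, against 0.268, 0.180 and 0.0278 times in control. Relative to Unc5b, netrin-1 WT libraries had ratios of 14.7, 8.46 and 4.41 and unc5B MUT libraries 12.8, 8.22 and 2.12. The neo1 MUT libraries had 7.75, 6.32 and 3.21, against 0.637, 0.353 and 0.0333 in control. Ntn1 RNA was therefore above both receptor RNAs in all 9 netrin-1 libraries and below both in all 3 control libraries. These ratios rest on the exonic length of the mouse gene. A shorter vector RNA would make them too low in the netrin-1 libraries.

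**Figure D3:**
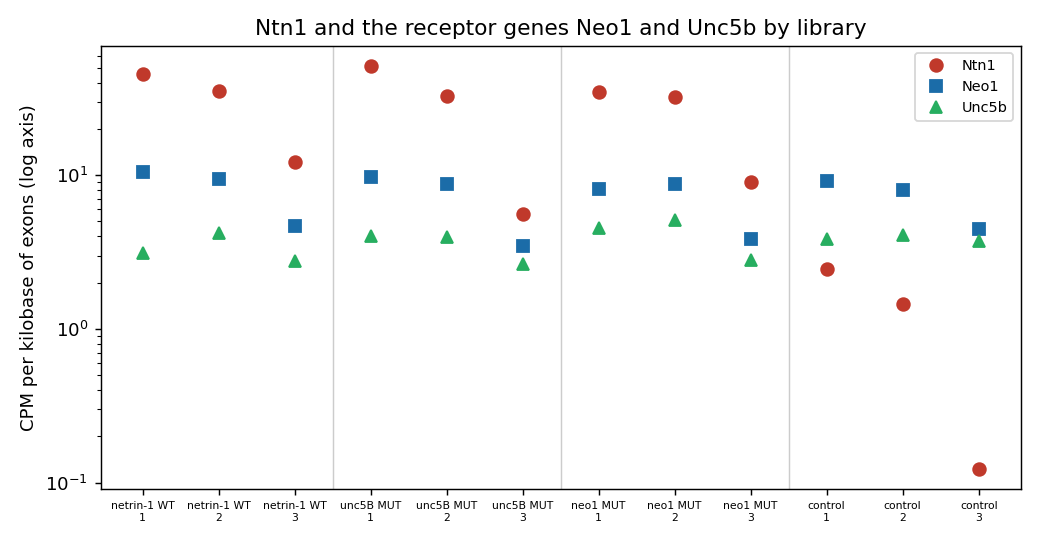
CPM per kilobase of exons, on a log axis, of Ntn1, Neo1 and Unc5b in each of the 12 libraries (group and replicate number below the axis). Ntn1 lies above both receptor genes in the 9 netrin-1 libraries, by 1.61 to 14.7 times, and below both in the 3 control libraries. Ntn1 is divided by the exonic length of the mouse gene in every library.

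The other measured netrin ligand genes were near the lower limit of detection. Ntn1 thus made up nearly all RNA of the 5 measured ligand genes where the vector encoded netrin-1. Ntn1 was 98.9%, 99.1% and 96.6% of the summed level per kilobase of the 5 measured ligand genes in netrin-1 WT libraries 1, 2 and 3. The share was 99.5%, 98.7% and 94.9% for unc5B MUT and 98.8%, 98.1% and 97.3% for neo1 MUT. In control it was 88.7%, 70.2% and 27.8%, so in control library 3 the other ligand genes together exceeded Ntn1. The shares of the netrin-1 libraries would likewise be too low if the vector RNA is shorter than the exons of the mouse gene. By mean CPM per kilobase over the 12 libraries the order was Ntn1 (21.9), Ntng2 (0.198), Ntn4 (0.133), Ntn5 (0.0677) and Ntng1 (0.00075). Each neighbouring pair in this order overlapped in library range, Ntn1 and Ntng2 through control library 3 and Ntn5 and Ntng1 through the library where Ntn5 was at 0.

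Ntn4 (ENSMUSG00000020019), on the plus strand of chromosome 10 at 93640681 to 93747207, had 5.18 to 29.9 counts per library. Its level was 0.496, 0.225 and 0.726 CPM in netrin-1 WT libraries 1, 2 and 3. The unc5B MUT libraries had 0.278, 0.499 and 0.558 CPM and the neo1 MUT libraries 0.310, 0.782 and 0.272 CPM, against 0.523, 0.709 and 0.594 CPM in control. The range of each netrin-1 group overlapped that of control. The mean was 0.483 ± 0.251 CPM in netrin-1 WT, 0.445 ± 0.148 in unc5B MUT, 0.455 ± 0.284 in neo1 MUT and 0.609 ± 0.0937 in control. For the 3 netrin-1 groups against control the log2 fold change was -0.46 ± 0.41 in the paired edgeR fit (adjusted p = 0.684), with a 95% interval of the fold of 0.388 to 1.35.

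Ntng2 (ENSMUSG00000035513), on the minus strand of chromosome 2 at 29194541 to 29253005, had 8.04 to 55.2 counts per library. Its level was 1.09, 0.806 and 0.699 CPM in netrin-1 WT libraries 1, 2 and 3, and 0.494, 0.841 and 0.586 CPM in the unc5B MUT libraries. The neo1 MUT libraries had 0.866, 1.32 and 0.422 CPM, against 0.514, 1.32 and 0.510 CPM in control. The groups overlapped, and number 2 was the highest library in all but netrin-1 WT. The log2 fold change of the 3 groups against control was 0.08 ± 0.33 (paired edgeR fit, adjusted p = 0.950), with an interval of the fold of 0.639 to 1.75.

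Of the 2 other ligand genes tested, 0 passed in any of the 6 pairs of groups or for the 3 netrin-1 groups together, with 0 at an unadjusted p under 0.05, in edgeR with or without the block, DESeq2 or limma-voom. The paired edgeR fit called 0.0285% to 5.26% of all genes in these comparisons, so 0 of 2 is near that share. Over the 3 single comparisons with control, the 95% intervals of the fold in the paired fit lay within 0.309 to 1.68 for Ntn4 and 0.462 to 2.21 for Ntng2, and each of them included 1. In number 3 against numbers 1 and 2, the log2 fold change was 0.20 ± 0.41 for Ntn4 (adjusted p = 0.685) and -0.67 ± 0.33 for Ntng2 (adjusted p = 0.0940) in the paired edgeR fit, so neither passed there. The authors' deposited table lists both without a call: for netrin-1 WT against control it gives log2 fold changes of -0.52 for Ntn4 (adjusted p = 0.594) and 0.26 for Ntng2 (adjusted p = 0.812).

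Ntn5 (ENSMUSG00000070564), which encodes a secreted netrin on the plus strand of chromosome 7 at 45684022 to 45694556, had 0 to 10.98 counts per library. Its mean was 0.157 ± 0.0295 CPM in netrin-1 WT, 0.129 ± 0.114 in unc5B MUT, 0.189 ± 0.0398 in neo1 MUT and 0.125 ± 0.0737 in control. The ranges of the 4 groups overlapped. In the single library at 0, unc5B MUT number 3, a count of 0 allows up to 0.163 CPM (3 counts). Ntng1 (ENSMUSG00000059857), on the minus strand of chromosome 3 at 109780040 to 110144011, had 3.41 counts over all libraries and was at 0 in 9 of 12. Its highest library held 1.27 counts, and 3 counts correspond to 0.0483 to 0.168 CPM depending on the library. These limits cover counting error only.

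**Figure D4:**
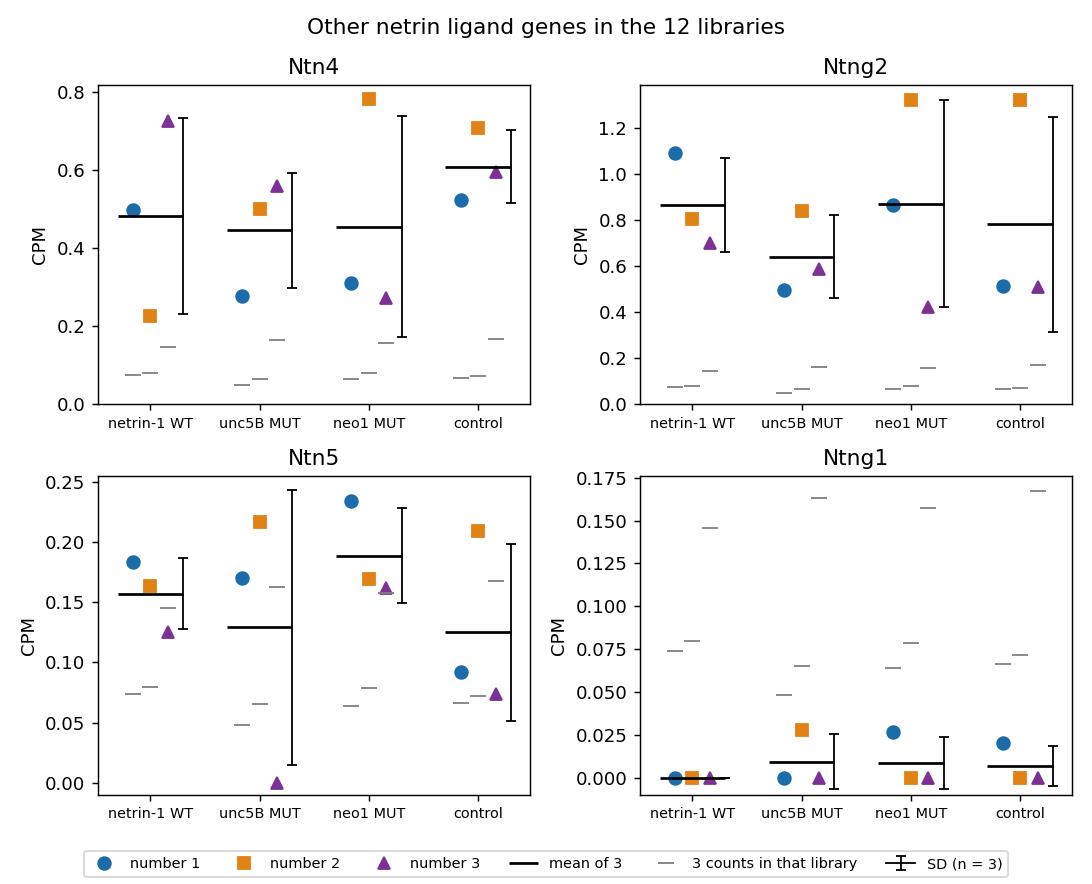
CPM of Ntn4, Ntng2, Ntn5 and Ntng1 in the 12 libraries, by group, with the symbol giving the replicate number, the line the mean, the bar the SD (n = 3) and the grey dash the level of 3 counts in each library. The groups overlap for each gene, all Ntng2 and Ntn4 values lie above the dash, several Ntn5 values lie near it and all Ntng1 values lie below it.

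Some of these low counts share sequence with genes that overlap the ligand genes, and the sources used here do not say whether reads were counted by strand. Of the stretches of 31 bases in Ntn5 transcripts, 20.5% also occur in Sec1, which overlaps Ntn5 on the other strand and had 0.396 ± 0.315 CPM in netrin-1 WT and 0.376 ± 0.146 in control. For Ntng2 the share found in other genes was 11.7%, nearly all of it in the overlapping transcript 6530402F18Rik. The counts of Ntn5 and Ntng2 are uncertain to that extent. Within Ntn4, the antisense gene Gm15915 had 1.31 ± 0.827 CPM in netrin-1 WT, 3.85 ± 0.391 in unc5B MUT, 2.96 ± 0.405 in neo1 MUT and 4.14 ± 0.757 in control. It was lower in netrin-1 WT than in control by a log2 fold change of -1.75 ± 0.34 (paired edgeR fit, adjusted p = 0.0192; unpaired 0.266). It was named after its value was seen. Inside an Ntn1 intron, Gm12305 had 2.16 summed counts over the netrin-1 WT libraries and 0 over the control libraries, which are counts too low to compare.

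None of the genes around Ntn1 on chromosome 11 was called together with it in the pooled comparison. Within 1 Mb on either side 37 genes were tested. For the 3 netrin-1 groups against control, 0 of the 37 passed in the paired or the unpaired edgeR fit, where 1.5% and 0.109% of all genes did. The median log2 fold change of the 37 in the paired fit was 0.06, against 0.0086 over all genes. The nearest were Stx8, which encodes a syntaxin of endosomes and lies 2216 bases away (log2 fold change -0.06 ± 0.13, adjusted p = 0.899), and Pik3r5, a regulatory subunit of PI 3-kinase 31298 bases away (-0.30 ± 0.25, adjusted p = 0.663). In single comparisons with control in the paired fit, 2 of the 37 rose in netrin-1 WT, where 1.74% of all genes rose, and 3 in neo1 MUT, where 1.97% did. The nearest of them was Gucy2e at 817294 bases, and 0 were called in unc5B MUT. The unpaired fit called 0 of the 37 in netrin-1 WT (lowest adjusted p = 0.271) and 0 in neo1 MUT (lowest adjusted p = 0.345). One of them, Chd3, a chromatin remodeller 942450 bases away, rose in both in the paired fit, by a log2 fold change of 1.55 ± 0.23 in netrin-1 WT (adjusted p = 0.00494) and 1.09 ± 0.23 in neo1 MUT (adjusted p = 0.0212).

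**Figure D5:**
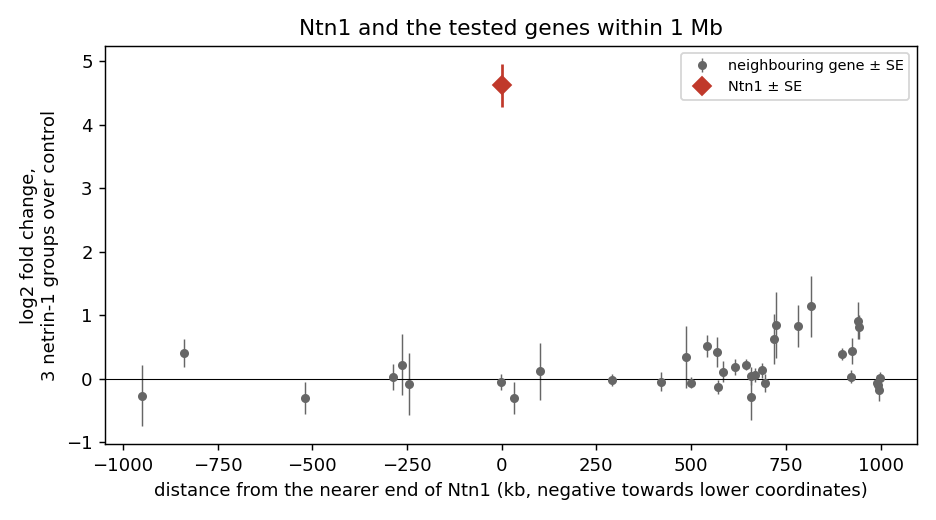
Log2 fold change (± SE, paired fit) of the 3 netrin-1 groups over control for Ntn1 and the 37 tested genes within 1 Mb, by distance from the nearer end of Ntn1 in kilobases. Ntn1 lies at 4.62 and its neighbours between -0.30 and 1.14.

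Genes that act with netrins were compared in the same fits. In the unpaired fit 0 members of the 6 lists below were called. Of 10 receptor genes of secreted netrins, 9 were tested and 0 passed in any group comparison in the paired edgeR fit. That fit called 0.0285% to 5.26% of all genes in these comparisons, so 0 of 9 is near that share and does not set the receptors apart. Neo1, the neogenin gene, was 71.6 ± 27.1 CPM in netrin-1 WT, 64.0 ± 29.7 in unc5B MUT, 60.4 ± 23.4 in neo1 MUT and 62.9 ± 21.5 in control. Unc5b was 21.1 ± 4.62 CPM in netrin-1 WT, 22.1 ± 4.92 in unc5B MUT, 25.8 ± 7.40 in neo1 MUT and 24.3 ± 1.24 in control. Dcc was too low to test, at a mean of 0.164 CPM. In number 3 against numbers 1 and 2, 5 of the 9 were lower, among them Neo1 by a log2 fold change of -1.15 (adjusted p = 1.99e-06) and Unc5b by -0.46 (adjusted p = 0.00835). The share of all genes called lower there was 31%.

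Other lists gave few calls between the groups. Of the netrin-binding integrin genes 4 of 5 were tested and 0 passed in the group comparisons, with Itgb1 at a mean of 360.1 CPM and Itga6 at 205 CPM. Of the Lrrc4 family genes, whose products bind netrin-Gs, 2 of 3 were tested and 0 passed in the group comparisons, with Lrrc4 at 0.591 CPM. The paired fit called 0.0285% to 5.26% of all genes in these comparisons, so 0 calls among so few genes is near that share. In number 3 against numbers 1 and 2, where 62.8% of all genes were called, Lrrc4 was lower by a log2 fold change of -0.82 ± 0.29 (paired edgeR fit, adjusted p = 0.0292). Of 25 intracellular partners, only Ablim1, an actin-binding LIM protein, passed against control: it rose in neo1 MUT by 0.98 ± 0.25 (adjusted p = 0.0461), where 1.97% of all genes rose. In netrin-1 WT, where 1.74% of all genes rose, none of the 25 did.

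Among other ligands and partners of these receptors, Flrt3 was the only one of 11 tested genes that passed in a comparison between groups. Flrt3 encodes a membrane protein that binds Unc5 receptors. It was 1.88 ± 0.778 CPM in netrin-1 WT, 11.7 ± 6.503 in unc5B MUT, 3.69 ± 2.71 in neo1 MUT and 17.0 ± 10.2 in control. It fell in netrin-1 WT, with a log2 fold change of -3.06 ± 0.28 (paired edgeR fit, adjusted p = 0.000471), and in neo1 MUT, with -2.24 ± 0.26 (adjusted p = 0.00156), where 1.76% and 3.3% of all genes fell. In unc5B MUT it was higher than in netrin-1 WT by 2.59 ± 0.28 (adjusted p = 0.00212), a direct test between these groups. The median log2 fold change of the 11 genes was 0.27 in netrin-1 WT and -0.05 in neo1 MUT, against 0.0066 and 0.015 over all genes. In number 3 against numbers 1 and 2, 7 of the 11 were lower in the paired fit, Flrt3 among them (-1.55 ± 0.22, adjusted p = 9.83e-05), where 31% of all genes were lower.

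Of the laminin chains, whose N-terminal domains netrin-1 shares, 9 of 11 were tested and 2 passed in comparisons between groups. Lama1, the alpha chain of embryonic laminin, was 123 ± 32.04 CPM in netrin-1 WT, 237 ± 74.7 in unc5B MUT, 91.0 ± 32.2 in neo1 MUT and 333 ± 82.7 in control. It fell in netrin-1 WT (log2 fold change -1.42 ± 0.22, adjusted p = 0.00752) and in neo1 MUT (-1.87 ± 0.23, adjusted p = 0.00184) in the paired edgeR fit. Lamb1, a beta chain, was 61.9 ± 35.7 CPM in netrin-1 WT, 156 ± 81.6 in unc5B MUT, 68.6 ± 38.3 in neo1 MUT and 241 ± 132 in control. It fell in netrin-1 WT (-1.95 ± 0.38, adjusted p = 0.0206) and in neo1 MUT (-1.63 ± 0.38, adjusted p = 0.0362). The share of all genes that fell was 1.76% in netrin-1 WT and 3.3% in neo1 MUT. In the same fit 0 of the 9 chains passed between unc5B MUT and netrin-1 WT, where 1.97% of all genes did. Between unc5B MUT and control 0 of the 9 passed, where 0.0285% of all genes did. Lama1 was lower in neo1 MUT than in unc5B MUT (-1.36 ± 0.23, paired edgeR fit, adjusted p = 0.0105). In number 3 against numbers 1 and 2, 4 of the 9 chains were higher, Lamb1 among them (0.85 ± 0.28, adjusted p = 0.0200), and 1 was lower, where 62.8% of all genes were called. The median log2 fold change of the 9 chains was -0.87 in netrin-1 WT and -0.44 in neo1 MUT. Markers of primitive endoderm, an extraembryonic cell type that makes laminin, moved with these chains and with Flrt3. Their summed level was 43.9 to 54.5 CPM in netrin-1 WT, 205 to 255 in unc5B MUT, 33.4 to 88.1 in neo1 MUT and 363 to 457 in control. All 8 were lower in netrin-1 WT and in neo1 MUT than in control in the paired fit, and none was at 0 in any library. Their part in the laminin and Flrt3 results was not tested.

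Markers of the cell line were high in every group: 8 of 8 embryonic stem cell markers were tested, with summed levels of 3327 to 3656 CPM in netrin-1 WT, 3082 to 3762 in unc5B MUT, 2390 to 3521 in neo1 MUT and 3049 to 3717 in control. Floor plate markers, of a known source of netrin-1, summed to 0.649 to 1.10 CPM in netrin-1 WT and 2.03 to 4.60 CPM in control, the reverse of the order of Ntn1. Of these 4 genes Foxa2 alone was tested.

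The genes most like Ntn1 across the 12 libraries were sought among 11108 genes with a mean of at least 5 CPM, by the correlation of log2 CPM after each replicate number was centred. The points share libraries and the separation of control from the rest, so the values are descriptions. The highest were Dag1, which encodes dystroglycan (r = 0.97), Coprs, a cofactor of the methyltransferase Prmt5 (0.94), Rnf166, a RING finger protein (0.93), Amt, an enzyme of glycine cleavage (0.92), and Rhoa, a small GTPase (0.92). Dag1 had 242 ± 35.3 CPM in netrin-1 WT, 255 ± 22.6 in unc5B MUT, 237 ± 33.1 in neo1 MUT and 121 ± 26.6 in control. It was also close to Ntn1 without centring (r = 0.96), whereas Coprs (0.37), Rnf166 (0.26) and Rhoa (0.51) were not. Dag1, Amt and Rhoa lie within 133301 bases of each other on chromosome 9, at 108204634 to 108337934. The 5 genes tested wholly within that span were chosen after their values were seen. In the paired edgeR fit, the log2 fold change of the 3 netrin-1 groups over control was 1.04 for Dag1 and 1.07 for Nicn1. It was 1.19 for Amt, 0.80 for Tcta and 0.85 for Rhoa. All but Tcta (adjusted p = 0.0660) passed in this fit, where 1.5% of all genes did. The 6 tested genes beside them lay between -0.34 and 0.46, and none passed. The cause was not tested.

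Among the lowest correlations with Ntn1 were those of Uqcrfs1, a subunit of respiratory complex III (-0.96), Dtnbp1, which encodes dysbindin (-0.95), Smim13 (-0.95) and Pbrm1, a subunit of a chromatin remodelling complex (-0.95). Uqcrfs1, Smim13 and Dtnbp1 all lie on chromosome 13. Of these 4 genes, only Dtnbp1 stayed near that value without centring (-0.96). The genes most like Ntn4 were Tubb2a (0.88), Sgpp1 (0.85) and Abhd5 (0.85), and those most like Ntng2 were Epm2aip1 (0.91), Cstf2 (0.84) and Fam210a (0.82). Both members had few counts, so these orders are loose.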

How the data were processed

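RNA-seq libraries of CGR8 cells were grouped by their titles, 3 per group. The authors deposited a raw table of estimated counts per Ensembl gene, which need not be whole. The design had assumed whole counts, so values were rounded for tests. The authors' deposited table of comparisons gives log2 fold changes, p-values and adjusted p-values. Its signed fold scores, also deposited by the authors, were not used, and their deposited normalized log2 values were used only as a check within replicate numbers. The submitters' processing notes name FastQC 0.11.5, STAR 2.5.2b, R 3.3.2, Bowtie, Bowtie2 and DESeq2 and the builds mm10, GRCm38.p5 and GRCh38, with no roles. The sources used here do not name the program that counted reads or its use of strand. Of 52661 gene IDs, 52566 matched GENCODE M21 (GRCm38), which gave names, lengths, coordinates and sequences.

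For the unpaired fit, all 12 libraries were modelled by group alone in edgeR 4.0.16 (R 4.3.3, limma 3.58.1), with TMM normalization, filterByExpr and the quasi-likelihood F-test, adjusted by Benjamini-Hochberg over 21053 genes at a threshold of 0.05. In the paired fit the replicate number is a block. Libraries of the same number in different groups deviated together from their group means (r = 0.58 to 0.88 over 18 pairs, above the minimum of 0.1), so the numbers were treated as pairs. Numbers 1 and 2 also correlated with each other (0.49 to 0.76), and number 3 went against both (-0.83 to -0.60). Within number 1 the r was 0.58 to 0.75 and within number 2 it was 0.64 to 0.76. These ranges overlap that between numbers 1 and 2, so the check sets number 3 apart but hardly tells number 1 from number 2. Replicate libraries differed beyond counting noise in every group. The labels do not say that replicates came from separate cultures, so p-values measure only how these samples vary, and that variation may be technical. With 3 libraries a side, an exact permutation p cannot go below 0.1, and none was computed. Likeness used log2 CPM with a prior count of 2. Named genes were the members, the genes most and least like them, list members past the threshold or most abundant, and the nearest neighbours of Ntn1; 1 of these genes is not reported here. Alternatives were DESeq2 1.42.0, limma-voom, RLE size factors, 2 other filters, only the groups compared, and each library left out. The fits were tested on simulated data, with changes put only into netrin-1 WT. These data were drawn from the means, number effects and spread of the paired fit, so they cannot decide between the fits. The members, lists and alternatives were chosen with earlier results of these data known, and the fits without number 3 and the test of its difference between groups were chosen after seeing these values.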

Additional observations from a re-analysis of the deposited data

How the results depend on the processing

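The rise of Ntn1 against control kept its direction in every setting and passed with the replicate block, with DESeq2 or without number 3. DESeq2 gave log2 fold changes of 4.53 for netrin-1 WT, 4.45 for unc5B MUT, 4.24 for neo1 MUT and 4.41 for the 3 groups together, and the replicate block gave 4.85, 4.48, 4.52 and 4.62. Without the 4 libraries numbered 3, a choice made after seeing the data, the values were 4.37, 4.41, 4.09 and 4.29, and with the block as well 4.41, 4.42, 4.14 and 4.32. Leaving out 1 library at a time gave 3.99 to 5.29, 3.80 to 5.23, 3.69 to 4.99 and 3.87 to 5.17 in the unpaired fit, with 0 calls, and all of these fits passed with the block. The number 3 difference of Ntn1 was -2.60 to -2.13 and passed in 12 of 12 such fits.

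Between netrin-1 forms the sign of Ntn1 changed with the setting, and none of these values passed. For unc5B MUT against netrin-1 WT it turned to 0.038 without number 3 and 0.014 with the block as well, and leaving out 1 library gave -0.70 to 0.43. For neo1 MUT against netrin-1 WT the range was -0.68 to 0.10. For neo1 MUT against unc5B MUT it turned to 0.033 in limma-voom and 0.031 with the block, with a range of -0.73 to 0.42. None of the values of Ntn4 and Ntng2 against control passed, and several crossed 0 when 1 library was left out. Ntn4 ranged from -0.81 to 0.18 for netrin-1 WT, and from -0.093 to 0.51 for number 3. Ntng2 ranged from -0.11 to 0.75 for netrin-1 WT, -0.51 to 0.36 for unc5B MUT, -0.25 to 0.80 for neo1 MUT and -0.22 to 0.64 for the 3 groups together. In number 3, Ntng2 passed without netrin-1 WT replicate 2 (-0.81, adjusted p = 0.0419, edgeR). Ntng2 in the 3 groups turned to -0.00043 with no filter and -0.038 without number 3. Without centring, r with Ntn1 turned to 0.013 for Smim13 and 0.17 for Pbrm1, and r with Ntng2 to -0.14 for Cstf2. The cause of these changes was not tested.

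Counts over all genes moved by more than 1.5 times, so the share called depends on the fit. The unpaired fit called 21 genes for netrin-1 WT, 0 for unc5B MUT and 27 for neo1 MUT against control, DESeq2 347, 11 and 424, and the block 737, 6 and 1108. With only the groups compared they were 0, 0 and 2. With 1 library left out, the block called 211 to 1861 genes for netrin-1 WT and 278 to 1111 for neo1 MUT. The block changed no other call of a member. Depth limits Ntn4 and Ntng2, and it leaves Ntn5 and Ntng1 without a test.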
